A study of Homo sapiens with 6 samples.

Results

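The expressed LINC RNAs of DU-145/tet-XISTshRNA cells are the long noncoding RNAs whose symbol is LINC followed by a number and whose mean level was at least 0.5 TPM (transcripts per 1000000) over the 6 samples. There were 176 of them among 1624 LINC symbols listed. Of those symbols, 976 were listed at 0 in every sample and 648 had a value above 0 in at least 1 sample. The whole table held 25528 gene symbols, of which 12985 reached the same minimum and were tested. Since members were chosen by their mean TPM over all 6 samples, their levels are given as a description, and the comparison of DOX with vehicle is the only one tested. The called member with the most negative log2 fold change was LINC02478, which fell from 9.25 ± 2.89 TPM with vehicle to 2.12 ± 1.06 TPM with DOX (mean ± SD, n = 3 each). It was called on TPM without a replicate block and on reads recovered from the TPM with one.

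Long intergenic noncoding RNAs are transcribed by RNA polymerase II, capped, spliced and usually polyadenylated like messenger RNAs, but they do not carry a long conserved open reading frame. They tend to be less abundant, shorter in exons and more restricted to certain cell types than messenger RNAs, and many stay in the nucleus. Some act on neighbouring genes in cis, others bind proteins or RNAs elsewhere, and a few have turned out to encode small peptides. A LINC number is a placeholder name given until a function is known, so for most members no role is stated here.

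DU-145 is a castration-resistant prostate carcinoma line. All 6 samples came from DU-145 cells transduced with a tetracycline-inducible shRNA against XIST and selected with puromycin or geneticin. The groups of 3 samples each were treated either with 0.1% DMSO as vehicle or with 500 ng/ml doxycycline (DOX) for 7 days to switch on the shRNA. The same transduced cells served as their own control, so the shRNA, DOX itself and the loss of XIST cannot be told apart in this comparison. Cells were grown in triplicate, and the labels do not say that these were separate experiments, so p-values measure the spread between these samples only. XIST, the targeted RNA, was listed at 0 TPM in each of the 6 samples, as was the translation factor gene EIF4A1, and neither has a row in the deposited DESeq2 table, so silencing could not be checked from these values.

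The epithelial markers EPCAM, CDH1, KRT8, KRT18 and KRT19 were all detected, with the lowest value at 5.11 TPM. Of the luminal prostate genes, KLK3 was listed at 0 throughout and KLK2 did not exceed 0.0416 TPM. Markers of leukocytes (PTPRC) and endothelium (PECAM1) did not exceed 0.0167 and 0.0531 TPM, and the fibroblast gene COL1A1 lay between 0.269 and 0.616 TPM. Depth differed widely. Vehicle replicate 3 held 5454511 recovered reads and DOX replicate 1 held 64585639, against 16702010 to 20341106 in the other 4 samples. A set of 5 small RNAs (RN7SK, RPPH1 and the signal recognition particle RNAs RN7SL1, RN7SL2 and RN7SL3) took 67.5% of all TPM in vehicle replicate 3 and 82.6% in DOX replicate 1, with the other 4 samples between 74.6% and 77.4%. Since TPM sums to a fixed total, this share moves the TPM of every other gene, and its part in the results was not tested beyond the rescaled values given below.

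Promoter windows of 4 called members are shown first, to let the reader see the DNA from which these RNAs start. The windows are from RefSeq on GRCh38.p14, run 5′ to 3′ on the strand of the gene, and cover 250 bases before and 50 bases after the annotated start. Capitals mark matches on either strand to the TATA box TATAAA, the CCAAT box CCAAT, the GC box GGGCGG, the E-box CACGTG and the AP-1 site TGANTCA. LINC02478 (chr2:160271846-160272145, minus strand) was called on TPM without the replicate block and on recovered reads with it. LINC02035 (chr3:122886263-122886562, plus strand) and LINC00672 (chr17:38925364-38925663, plus strand, now LASP1NB in RefSeq) were called on recovered reads with the block, and LINC01433 (chr20:4192840-4193139, plus strand) on TPM without it. With the block on TPM all 4 were called.
LINC02478: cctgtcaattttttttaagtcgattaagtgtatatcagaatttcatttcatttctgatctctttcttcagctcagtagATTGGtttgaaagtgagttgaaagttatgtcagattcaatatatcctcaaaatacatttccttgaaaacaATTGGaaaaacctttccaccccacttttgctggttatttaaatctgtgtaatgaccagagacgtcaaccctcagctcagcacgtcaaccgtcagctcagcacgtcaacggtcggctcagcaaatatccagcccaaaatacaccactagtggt
LINC02035: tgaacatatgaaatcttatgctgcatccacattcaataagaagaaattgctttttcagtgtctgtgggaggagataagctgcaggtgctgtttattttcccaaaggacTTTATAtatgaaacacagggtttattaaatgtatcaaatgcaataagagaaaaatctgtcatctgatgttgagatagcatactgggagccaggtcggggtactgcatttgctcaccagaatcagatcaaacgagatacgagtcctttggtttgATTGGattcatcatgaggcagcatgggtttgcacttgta
LINC00672: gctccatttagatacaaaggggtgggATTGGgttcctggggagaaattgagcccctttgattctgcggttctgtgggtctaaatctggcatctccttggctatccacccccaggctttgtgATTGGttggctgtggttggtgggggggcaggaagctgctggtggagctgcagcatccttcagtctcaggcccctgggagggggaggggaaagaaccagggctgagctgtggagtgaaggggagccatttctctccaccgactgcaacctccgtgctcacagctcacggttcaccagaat
LINC01433: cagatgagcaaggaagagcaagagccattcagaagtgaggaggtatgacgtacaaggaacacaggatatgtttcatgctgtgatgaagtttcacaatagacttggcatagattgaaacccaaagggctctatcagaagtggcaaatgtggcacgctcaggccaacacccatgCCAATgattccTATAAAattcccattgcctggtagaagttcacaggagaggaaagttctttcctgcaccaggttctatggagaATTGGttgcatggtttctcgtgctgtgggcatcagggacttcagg

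The window of LINC02478 had 39.0% GC with 7 CpG dinucleotides and held 2 CCAAT boxes, both on the opposite strand. LINC01433 had a TATA box 67 bases and a CCAAT box 78 bases before its start. The LINC02035 window was 39.3% GC and the LINC00672 window 57.3% GC. Of the 176 members, 133 had 145 promoter windows in the table. Their median GC content was 59.0% with 15 CpG dinucleotides, beside 58.7% and 14 over all 35116 windows. The 10 members called on TPM without the block or on recovered reads with it had 8 windows with a median of 43.0% GC and 3.5 CpG dinucleotides, a description of few sequences. A TATA box was in 11.03% of the LINC windows and 11.53% of all windows, a CCAAT box in 41.38% and 34.61%, and a GC box in 48.97% and 44.95%. The E-box was in 12.41% of the LINC windows and 7.26% of all, and the AP-1 site in 6.90% and 7.71%. None of these matches shows a bound site.

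Most members were scarce. The median of their mean levels was 1.54 TPM, beside 6.08 TPM over all genes tested. Of the 176, 109 reached 1 TPM, 24 reached 5 TPM, 11 reached 10 TPM and 4 reached 20 TPM. The 8 highest held 31.2% of the summed level. The 3 members just inside the minimum were LINC01588 (0.518 TPM), LINC00597 (0.521 TPM) and LINC01031 (0.523 TPM), and LINC02175 (0.498 TPM), LINC01023 (0.494 TPM) and LINC00663 (0.490 TPM) lay just outside it. LINC01031 owed its place to vehicle replicate 3, with 2.49 TPM there and at most 0.418 TPM in the other 5 samples. The reads behind these levels were few. The median member had 15 recovered reads in vehicle replicate 3, 176 in DOX replicate 1 and between 45 and 57 in the other 4 samples, and 72 members had fewer than 10 reads in vehicle replicate 3. A value above 0 in every sample was found for 164 members.

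**Figure D1:**
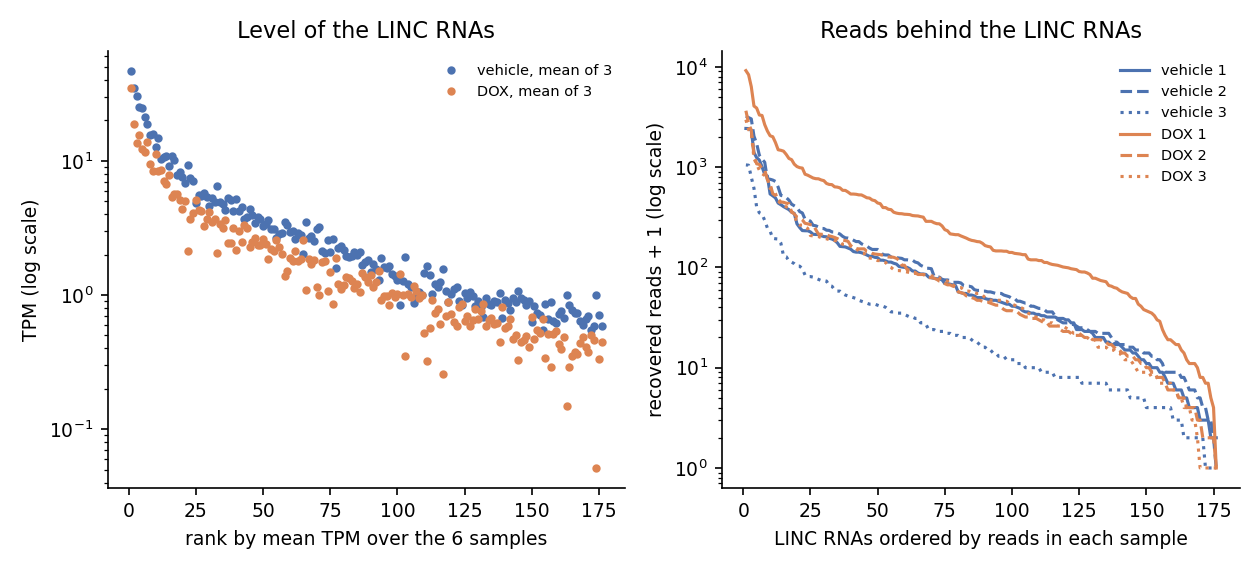
Left, mean TPM of each of the 176 LINC RNAs with vehicle and with DOX (n = 3 each, log axis) against its rank by mean TPM over the 6 samples. Right, recovered reads plus 1 (log axis) of the LINC RNAs in each sample, ordered from high to low, where DOX replicate 1 lies above and vehicle replicate 3 below the other samples, with medians of 176 and 15 reads.

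GENCODE release 44 held a gene for 163 members. Their median exonic length was 3253 bases, beside 5326 over all genes tested, and they had a median of 4 exons beside 11. The GC content of their exons was near that of all genes, with medians of 47.1% and 47.4%. No coding gene overlapped 126 of the 163, 14 overlapped a coding gene on the same strand and 26 on the other strand. Libraries were stranded, but the strand setting of the counting is not given in the sources used here, so values of overlapping members are uncertain. RefSeq now calls 171 of the 176 lncRNAs and places 5 in protein-coding genes, LINC00672 (LASP1NB) among them. By RefSeq, 19 members lay on chromosome 1, 16 on chromosome 2 and 15 on chromosome 14.

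DOX was compared with vehicle to ask which LINC RNAs moved when the XIST shRNA was switched on. On TPM as deposited, 6 members were called lower with DOX (3.41% of 176) and 0 higher. Calls required a fold change over 1.5 and a Benjamini-Hochberg adjusted p-value under 0.05, by limma on log2(TPM + 1), a scale that understates changes of scarce RNAs. Over all genes tested, 0.424% were called lower and 0.0231% higher. Without the adjustment for many genes, limma put 39 members past the same limits (22.2%), called nominal below, all of them lower, against 17.4% of all genes nominally lower and 0.139% nominally higher. Members had a median log2 fold change of -0.34 and all genes tested one of -0.33, and 162 of 176 members had a negative value (92.0%, against 92.4% of all genes). On this scale the median and the share of negative values were close to those of the whole table. The medians were further apart with a smaller constant added. On log2(TPM + 0.5) they were -0.44 for members and -0.37 for all genes, and on log2(TPM + 0.1) they were -0.57 and -0.42.

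Pairing of samples by replicate number was read from correlated deviations, which were plain for replicate 1 and weak for replicates 2 and 3. With the replicate number as a block, 40 members were called lower and 0 higher on TPM, against 17.5% of all genes lower. That fit drew its spread almost wholly from all genes together, with 25970 degrees of freedom, against 26.5 without the block. Among the RNAs described below, the block brought calls for LINC00648, LINC00641, LINC01578, LINC01515, LINC02057, LINC01138, LINC00467, LINC00672, LINC02035 and LINC02246, with adjusted p-values from limma between 2.80e-06 and 0.0111. Leaving out samples also moved the count on TPM without the block. It was 36, 0 and 0 without vehicle replicate 1, 2 or 3, and 18, 46 and 16 without DOX replicate 1, 2 or 3. Of all 12985 genes, 1327, 0 and 1 and then 169, 2384 and 178 were called lower in the same fits.

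In 59 members every DOX sample was lower than every vehicle sample (33.5%, against 30.5% of all genes), and in 0 members every DOX sample was higher (against 0.231% of all genes). Vehicle replicate 3 held the highest TPM of 116 members and DOX replicate 1 the lowest of 105. These are also the samples in which the small RNAs took the smallest and the largest share.

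After median-of-ratios scaling, which sets the typical gene to the same level in every sample, members had a median log2 fold change of -0.09 and all genes tested one of 0.01. A negative value was found for 115 members (65.3%, against 48.2% of all genes). The DOX group lay wholly under the vehicle group for 27 members (15.3%), against 9.27% of all genes, and wholly over it for 7 (3.98%), against 10.3% of all genes. Limma called 0 members and 0 genes in all on this scale, with 11 members nominally lower and 0 nominally higher, against 1.09% of all genes in each direction. The share of members with a negative value was thus above that of the table, while no member passed the adjusted test.

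**Figure D2:**
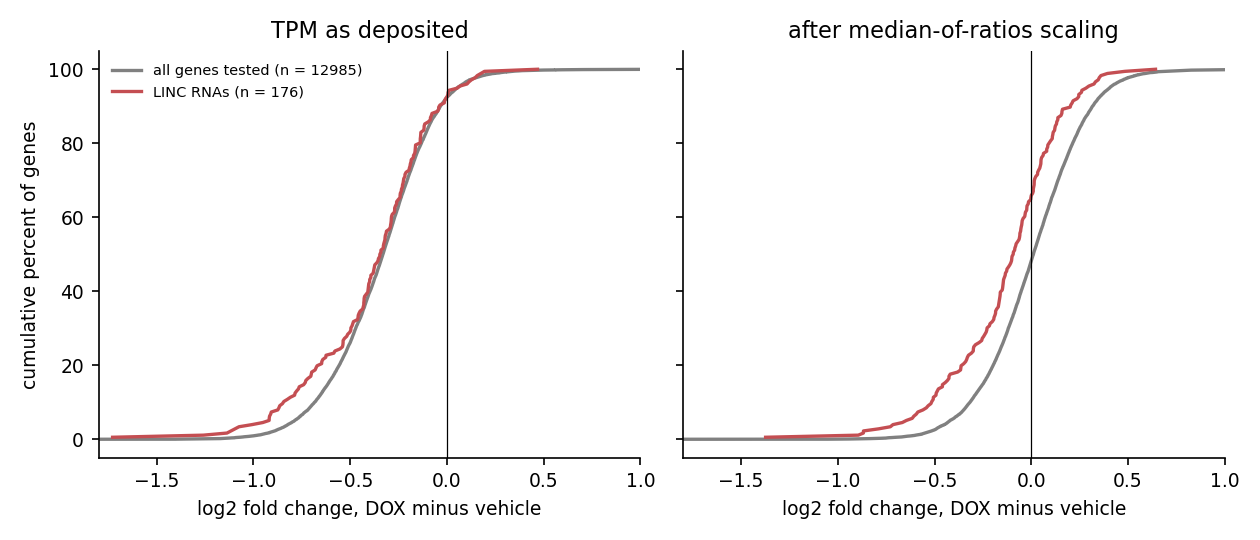
Cumulative percent of genes against log2 fold change (DOX minus vehicle) for the 176 LINC RNAs and the 12985 genes tested, on TPM as deposited (left) and after median-of-ratios scaling (right), drawn from -1.8 to 1. The curves have medians of -0.34 and -0.33 on the left and of -0.09 and 0.01 on the right, where the LINC curve lies to the left of all genes.

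The summed level of the LINC RNAs in replicates 1, 2 and 3 was 562, 648 and 844 TPM with vehicle and 323, 493 and 474 TPM with DOX. After median-of-ratios scaling the sums were 535, 584 and 598 with vehicle and 466, 489 and 510 with DOX. With the 5 small RNAs left out and the rest rescaled to 1000000, they were 2340, 2554 and 2595 with vehicle and 1859, 2051 and 2101 with DOX. On each of these 3 scales the 3 DOX sums lay below the 3 vehicle sums. RNA from fewer cells expressing a LINC RNA and less of it per cell cannot be told apart in these bulk samples.

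**Figure D3:**
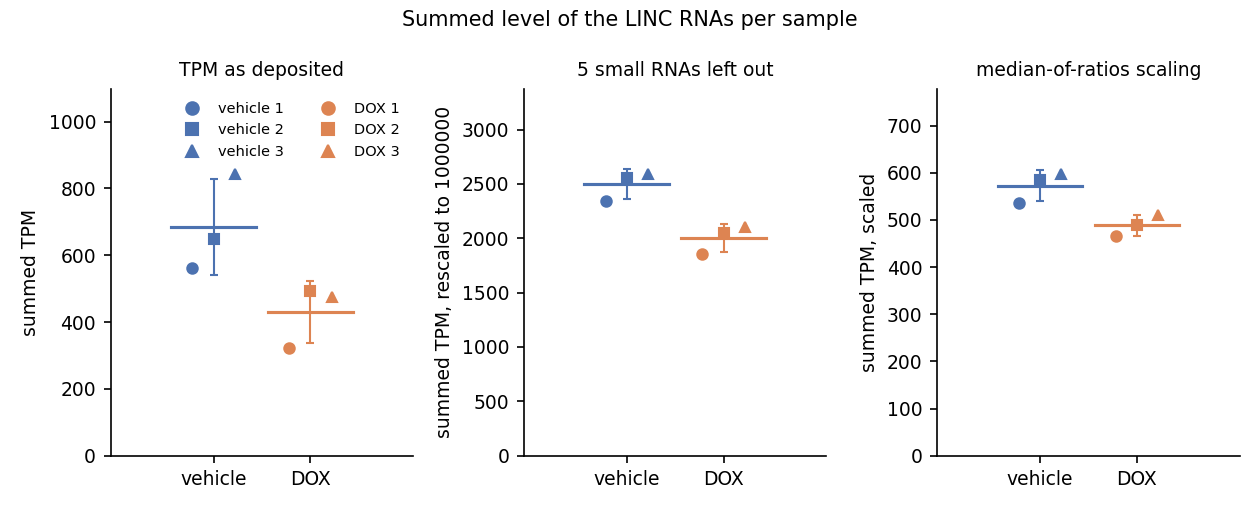
Summed level of the 176 LINC RNAs in each sample on TPM as deposited, with 5 small RNAs left out, and after median-of-ratios scaling. Points are samples (marker by replicate), bars the mean and whiskers the SD of 3 samples, and the DOX samples (323 to 493 TPM as deposited) lie below the vehicle samples (562 to 844 TPM) in each panel.

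The reads recovered from the TPM gave a test that weighs depth. By voom with limma and the replicate block, 5 members were called lower and 0 higher, against 2.26% of all genes lower and 1.33% higher. That fit put 14 members nominally lower and 1 nominally higher, against 3.35% and 2.29% of all genes. Without the block, voom called 0 members and 1 gene in all (0.0077%), with 14 members nominally lower and 0 nominally higher, against 3.89% and 2.24% of all genes. With the block but without vehicle replicate 3, the sample with the fewest reads, no call was left among the members (0 lower and 0 higher by limma). There 15 members were nominally lower and 3 nominally higher. Of all 12985 genes, that fit called 27 lower and 20 higher and put 443 nominally lower and 378 nominally higher. The 5 members were LINC02478, LINC00648, LINC00672, LINC02035 and LINC02246, and without vehicle replicate 3 their adjusted p-values from limma lay between 0.0735 and 0.12.

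LINC02478 lies between genes on chromosome 2 (chr2:160257719-160271895, minus strand, 5 exons), 71567 bases from the nearest coding gene start, that of the integrin gene ITGB6. In replicates 1, 2 and 3 it had 5.94, 11.2 and 10.6 TPM with vehicle and 1.97, 3.25 and 1.14 TPM with DOX. Every DOX value lay below the lowest vehicle value, on TPM and after scaling. The log2 fold change was -1.73 (SE 0.26, adjusted p = 0.00174 from limma) on TPM and -1.47 (SE 0.38, adjusted p = 0.0314 from limma) by voom with the block. After median-of-ratios scaling it was -1.37 (adjusted p = 0.292 from limma), and over all 20 alternatives it stayed between -2.14 and -1.28 while the adjusted p-value from limma ran from 2.01e-15 to 0.646. These values rest on 13 to 64 recovered reads per vehicle sample and 7 to 62 per DOX sample.

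LINC00648 was the third most abundant member, with 614 to 3309 recovered reads per sample. It lies on chromosome 14 (chr14:47764953-47795014, minus strand), 119700 bases from the start of MDGA2, which encodes a neural cell adhesion protein. Vehicle samples had 21.9, 29.0 and 41.1 TPM and DOX samples 8.63, 17.5 and 14.2 TPM. The groups did not overlap, and DOX replicate 1 was the lowest. By voom with the block the log2 fold change was -0.74 (SE 0.10, adjusted p = 0.00746 from limma). On TPM it was -1.14 with an adjusted p-value of 0.0584 from limma, just outside the call without the block.

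LINC00672, the RNA now placed in LASP1NB, had 2.54, 3.13 and 4.90 TPM with vehicle and 0.983, 1.28 and 1.87 TPM with DOX. LINC02035, an RNA of 1 exon on chromosome 3 (chr3:122886513-122892416), had 3.91, 4.74 and 7.09 TPM with vehicle and 1.77, 2.94 and 2.56 TPM with DOX. LINC02246, renamed ASMER1, had 2.49, 3.41 and 4.12 TPM with vehicle and 0.997, 1.87 and 1.69 TPM with DOX. In each of these 3 RNAs the groups did not overlap, and vehicle replicate 3 was the highest sample. Their log2 fold changes by voom with the block were -0.89 for LINC00672 (adjusted p = 0.0122), -0.62 for LINC02035 (adjusted p = 0.0141) and -0.72 for LINC02246 (adjusted p = 0.0108), all from limma. On TPM their adjusted p-values from limma lay between 0.0505 and 0.0632, so none was called there without the block. LASP1, the coding gene from which LASP1NB takes its name and which encodes an actin-binding LIM protein, had a log2 fold change of 0.31 by voom with the block (SE 0.09, adjusted p = 0.0468 from limma), under the fold needed for a call, and of -0.14 on TPM (adjusted p = 0.71 from limma).

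The other 5 members called on TPM rested on few reads. LINC01433 (chr20:4193090-4195953, plus strand) had 5.42, 4.28 and 9.75 TPM with vehicle and 2.84, 1.5 and 1.77 TPM with DOX. Its groups did not overlap on TPM but did after scaling. The log2 fold change on TPM was -1.26 (SE 0.25, adjusted p = 0.0138 from limma), and by voom with the block it was -0.83 (adjusted p = 0.119 from limma). Between 17 and 164 reads per sample lay behind it.

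LINC01730 (chr20:3808494-3812434, plus strand) had 4.42, 5.29 and 5.85 TPM with vehicle and 1.7, 1.5 and 3.26 TPM with DOX. LINC02293 (chr14:26809348-26820703, plus strand) had 2.4, 4.62 and 3.4 TPM with vehicle and 0.856, 1.35 and 1.06 TPM with DOX. In both the DOX samples lay below the vehicle samples, also after scaling. Log2 fold changes on TPM were -1.01 for LINC01730 (adjusted p = 0.033) and -1.07 for LINC02293 (adjusted p = 0.0138), both from limma. By voom with the block LINC02293 came closest to a call, with a log2 fold change of -1.20 and an adjusted p-value of 0.0518 from limma, beside 0.0873 for LINC01730.

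LINC01032, which RefSeq now names RGS2-AS1, had 2.84, 3.14 and 3.6 TPM with vehicle and 0.330, 1.20 and 1.45 TPM with DOX. Only 3 to 12 reads per sample were behind these values. LINC01775 (chr19:2458937-2462185, minus strand) had 1.05, 2.46 and 2.20 TPM with vehicle and 0.610, 0.445 and 0 TPM with DOX, from at most 7 reads in any sample. The groups did not overlap for either RNA. Their log2 fold changes on TPM were -1.12 for LINC01032 (adjusted p = 0.0138) and -1.10 for LINC01775 (adjusted p = 0.0137), and by voom with the block the adjusted p-values were 0.103 and 0.252, all from limma. RGS2, the regulator of G protein signalling in that name, had 7.69, 8.82 and 11.8 TPM with vehicle and 4.57, 4.20 and 7.42 TPM with DOX. Its log2 fold change was -0.72 on TPM (adjusted p = 0.0929 from limma). After scaling it was -0.33 (adjusted p = 0.411 from limma), and by voom with the block -0.38 (adjusted p = 0.197 from limma).

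**Figure D4:**
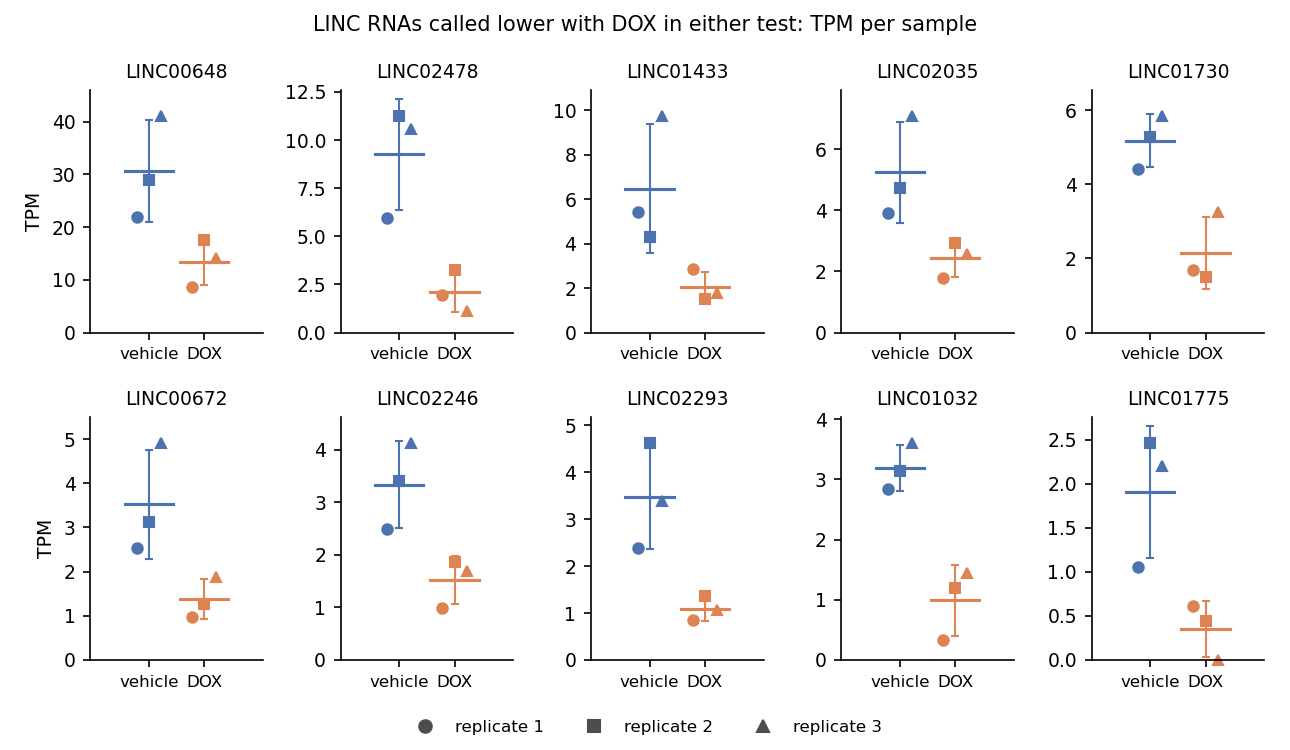
TPM in each sample for the 10 LINC RNAs called lower with DOX on TPM without the replicate block or on recovered reads with it, each panel on its own linear axis from 0. Points are samples (marker by replicate), bars the mean and whiskers the SD of 3 samples, and in each of the 10 panels the DOX samples lie below the vehicle samples, from 8.63 to 17.5 against 21.9 to 41.1 TPM for LINC00648.

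Of the 8 most abundant members, LINC00648 alone was called by voom with the block (against 2.26% of all genes lower and 1.33% higher). On TPM without the block, no call fell among the 8 (against 0.424% of all genes lower). With the block on TPM, LINC00648, LINC01578, LINC00467, LINC00641, LINC01515 and LINC02057 were called lower, against 17.5% of all genes. LINC00707, the highest, had 35.5, 40.3 and 65.2 TPM with vehicle and 22.3, 45.3 and 37.0 TPM with DOX. The groups overlapped, and the log2 fold change of -0.43 on TPM (adjusted p = 0.315 from limma) was 0.01 after scaling (adjusted p = 0.986 from limma). LINC01578, known as CHASERR, lies just upstream of the chromatin remodeller gene CHD2 and is known to hold down its expression in cis. It had 29.0, 36.5 and 39.7 TPM with vehicle and 12.7, 19.1 and 24.2 TPM with DOX. All DOX samples were below all vehicle samples, and by voom with the block the log2 fold change was -0.53 (SE 0.13, adjusted p = 0.0229 from limma), under the fold needed for a call. CHD2 had 18.3, 19.4 and 25.3 TPM with vehicle and 8.69, 13.3 and 12.4 TPM with DOX, and its log2 fold change in the same fit was -0.44 (SE 0.09, adjusted p = 0.015 from limma), also under that fold. Both values of this neighbouring pair were thus negative.

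LINC00641 had 18.2, 22.0 and 33.6 TPM with vehicle and 7.92, 14.8 and 14 TPM with DOX, with no overlap. It too passed the adjusted p-value but not the fold by voom with the block, at a log2 fold change of -0.56 (SE 0.10, adjusted p = 0.0108 from limma). LINC01515 had 16.9 to 25.5 TPM with vehicle and 6.18, 19 and 10.0 TPM with DOX, where DOX replicate 2 overlapped the vehicle range. LINC02057 showed the same order, with 13.2 to 17.1 TPM with vehicle and 5.64, 15.3 and 7.23 TPM with DOX. Their adjusted p-values from limma on TPM without the block were 0.0853 for LINC01515 and 0.106 for LINC02057.

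A list of LINC RNAs with described products or functions held 6 members, of which 0 were called on TPM without the block or by voom. Over all genes, 0.424% were called lower on TPM, 0.0077% by voom and 2.26% by voom with the block. On TPM with the block, LINC01138 and LINC00467 were called lower, against 17.5% of all genes. LINC00963, first described in the progression of prostate cancer, had 18.1, 15.3 and 23.3 TPM with vehicle and 14.3, 12.8 and 14.7 TPM with DOX. The DOX samples lay just below the vehicle samples on TPM and overlapped them after scaling. Its log2 fold change was -0.40 on TPM and 0.02 after scaling (adjusted p = 0.278 and 0.958 from limma). LINC01138, which binds the arginine methyltransferase PRMT5, had 5.76, 7.54 and 7.79 TPM with vehicle and 3.09, 5.31 and 3.87 TPM with DOX. The groups did not overlap on either scale, and the adjusted p-value from limma was 0.0939 on TPM and 0.126 by voom with the block.

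LINC00467 and LINC00665 both encode a small peptide. LINC00467 had 19.6, 18.5 and 37.9 TPM with vehicle and 12.0, 14.9 and 19.5 TPM with DOX, and LINC00665 had 4.73, 4.52 and 7.10 TPM and 3.61, 5.85 and 3.19 TPM. Both overlapped between groups. LINC00667 had 1.96 to 3.39 TPM over the 6 samples. LINC01116 had 0.680 to 1.13 TPM, and its nearest coding gene start, that of MTX2, was 368536 bases away. Both were among the 7 members whose DOX samples lay above the vehicle samples after scaling. Their log2 fold changes were 0.08 and 0.13 there and -0.24 and -0.08 on TPM. Their adjusted p-values from limma after scaling were 0.736 and 0.578.

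No member was called higher. The 5 most positive log2 fold changes on TPM were 0.47 for LINC00239, 0.19 for LINC01220, 0.18 for LINC01816, 0.16 for LINC01126 and 0.15 for LINC02361, with adjusted p-values from limma between 0.203 and 0.585. LINC00239 had 0.929, 1.59 and 0 TPM with vehicle and 1.41, 0.787 and 2.07 TPM with DOX. In vehicle replicate 3, the sample with the fewest reads, LINC00239 and LINC01220 had 0 reads. All 5 overlapped between groups. LINC00239 was called higher by limma when DOX replicate 2 was left out, at a log2 fold change of 0.67, and this was the only such call among the alternatives. LINC01126 starts 604 bases from ZFP36L2, which encodes an RNA-binding protein that promotes decay of messenger RNAs, in the opposite direction.

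Fold changes followed GC content, less so for the LINC RNAs than for the table. Across genes, Spearman's rho of log2 fold change with the GC content of the exons was 0.33 over 163 members and 0.66 over 12344 genes after median-of-ratios scaling, and 0.35 and 0.70 on TPM. Genes of a sample share its library and depth, so these are descriptions. Below 42.0% GC, the scaled median log2 fold change was -0.18 for 42 members and -0.20 for all genes. From 42.0% to 47.1% it was -0.11 for 39 members and -0.05 for all genes, and from 47.1% to 51.2% it was 0.01 for 41 members and 0.05 for all genes. At 51.2% GC and above, 41 members had a median of 0.00 and 20 of them were negative (48.8%), where all genes had a median of 0.19 with 16.6% negative. On scaled TPM the medians of members and of all genes were thus close at low GC and apart at high GC, a difference that was not tested. By voom with the block, members had a median of -0.345 below 42.0% GC, beside -0.25 for all genes. From 42.0% to 47.1% these were -0.19 and -0.069, and at 51.2% and above -0.118 and 0.245. With exonic length, rho after scaling was 0.06 over the members and -0.31 over all genes. Correction for GC content and length left the median at -0.10 for the members and 0.01 for all genes.

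**Figure D5:**
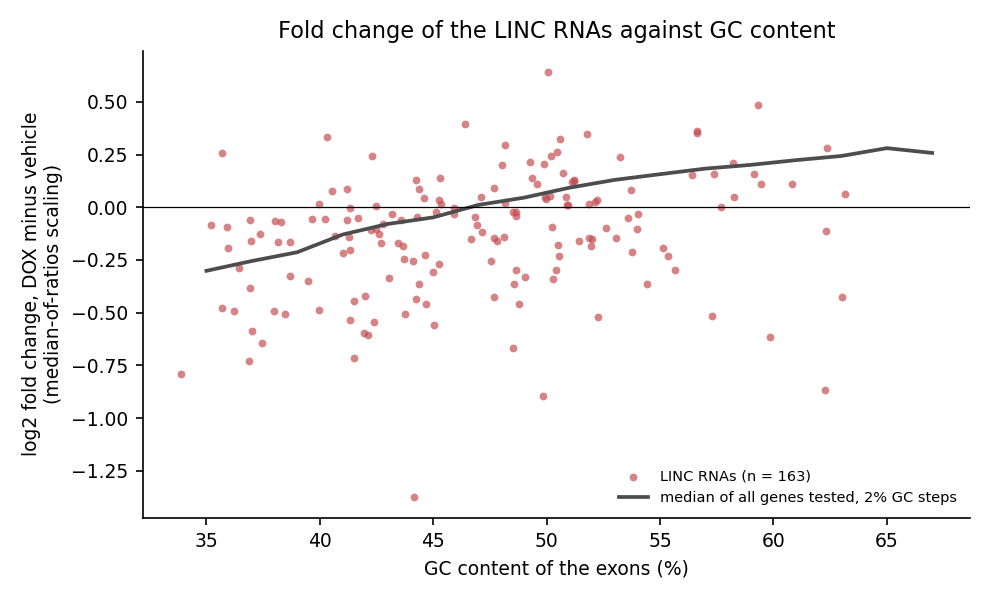
Log2 fold change (DOX minus vehicle, after median-of-ratios scaling) of 163 LINC RNAs against the GC content of their exons in percent, with the median of all genes tested in steps of 2% GC as a line. The line rises with GC content (rho 0.66 over single genes) while the LINC RNAs follow it loosely (rho 0.33), and above 51.2% GC their median of 0.00 lies under the 0.19 of all genes.

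Members were paired with the coding gene of the nearest start, at any distance. Over 111 members whose paired gene was also tested, rho between the log2 fold changes of the pair was 0.05 on TPM and 0.10 after scaling. Many pairs are not close neighbours, as LINC00662 and UQCRFS1 start 1419146 bases apart. LINC01578 was paired with FAM174B, 9656 bases away, and not with CHD2. These values thus do not describe adjacent genes only. The 18 members that start within 1000 bases of a coding gene in the opposite direction had a rho of 0.21 over 15 pairs with both genes tested. Of the 18 divergent members, 0 were called on TPM without the block (against 0.424% of all genes lower). By voom with the block it was 0 as well (against 2.26% lower). On TPM with the block, 6 (33.3%) were called lower, against 17.5% of all genes. On TPM without the block, 6 of the 109 members at or above 1 TPM were called lower (5.50%, against 0.42% of all genes there). Below 1 TPM it was 0 of 67 (against 0.457%). Median log2 fold changes on that scale were -0.42 and -0.27, beside -0.35 and -0.21 for all genes of the same levels. By voom with the block the order of the 2 levels turned. Members had medians of -0.17 at or above 1 TPM and -0.20 below it, beside 0.02 and -0.06 for all genes. The 7 members on the X chromosome had a scaled median log2 fold change of -0.05, from -0.37 to 0.02, beside -0.09 over 168 autosomal members. Of the 7, 0 were called on TPM without the block, against 0.424% of all genes lower. By voom with the block it was also 0, against 2.26% lower and 1.33% higher. So few members cannot be told from those shares.

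Other lncRNAs were counted by name in the same fits. Of 335 antisense RNAs, 2 were called lower on TPM (0.597%, against 0.424% of all genes) and 0 higher (against 0.0231%). Their median log2 fold changes were -0.28 on TPM and -0.03 after scaling. The 21 small nucleolar RNA host genes, whose introns carry guide RNAs for ribosomal RNA modification, had medians of -0.22 and 0.15. Limma called 0 of them on either scale. On TPM 2 were nominally lower (9.52%, against 17.4% of all genes), and after scaling 1 was nominally higher (4.76%, against 1.09%). The 18 microRNA host genes had medians of -0.26 and -0.02. Among 13 well-studied lncRNAs, NEAT1 and MALAT1, both nuclear RNAs, were called lower on TPM (15.4%, against 0.424% of all genes). Neither was called after scaling, with adjusted p-values from limma of 0.111 and 0.292. By voom with the block, 2 of the 13 were called lower (15.4%, against 2.26%). Medians of the 13 were -0.66 on TPM and -0.28 after scaling. After scaling, the LINC median of -0.09 thus lay between the antisense RNAs and the well-studied lncRNAs, a difference in medians that was not tested.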

How the data were processed

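RNA-seq of 3 vehicle-treated and 3 DOX-treated samples of DU-145/tet-XISTshRNA cells was used, and groups and replicate numbers come from the sample titles. The authors isolated total RNA, made stranded mRNA libraries, aligned reads with STAR to GRCh38 (hg38 in the submitters' processing notes, tool versions not given in the sources used here) and deposited TPM per gene symbol. They also deposited a DESeq2 table for DOX against vehicle, whose fold changes and p-values were not used. Its mean of normalized counts, the authors' own signal over all samples, served with the TPM to recover whole reads per gene. Of values up to 20 reads, 99.07% to 99.98% per sample came out within 0.1 of a whole number. That table held 964 rows without a TPM row, 4 of them LINC symbols.

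The members and gene lists were chosen with earlier results of these data known. The 12985 genes whose mean TPM reached 0.5 entered limma 3.58.1 under R 4.3.3, on the log2(TPM + 1) scale, with a variance trend and no block, followed by Benjamini-Hochberg adjustment. Alternatives were another pseudocount or filter, median-of-ratios scaling, leaving out the small RNAs, the replicate block, correction for GC content and length, voom on the recovered reads, and leaving out each sample. An exact permutation test of 3 against 3 samples cannot go below 0.1 and was not used. Samples that share a replicate number (1, 2 or 3) deviated together from their group means. Their r across genes was 0.55, 0.21 and 0.21 on TPM and 0.53, 0.25 and 0.18 after scaling. Vehicle replicate 2 with DOX replicate 3 had r of 0.14 on TPM. After scaling that unlike pair had 0.180, where the replicate 3 samples had 0.176. The pairing rests only on these values and is plain for replicate 1 only.

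Described by rule were up to 10 called members without overlap, the 8 highest, the 5 with the most positive fold change, those next to the minimum and a list with known products or functions. LINC00672, LINC02035 and LINC02246, and the coding genes CHD2, LASP1 and RGS2, were added after their values were seen. RefSeq names were matched by symbol for 152 members and by an older name for 24. GENCODE release 44 gave exons and GC content. The fits and the recovery of reads were tested on simulated data. With 200 genes of any kind changed 2-fold, limma on log2(TPM + 1) found 73.5% and voom without the block 92%. With every LINC RNA changed 2-fold, they found 40.3% and 51.1% of the 176. Many members with a change of that size were thus missed in the simulation, so a member without a call may still have changed. Python 3.11.15, pandas 2.3.3, SciPy 1.17.1 and matplotlib 3.10.9 were used. Some of the marker genes checked are not reported here.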

Additional observations from a re-analysis of the deposited data

How the results depend on the processing

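On TPM, 6 LINC RNAs were called lower (55 genes in all, with 3 higher). That count became 0 with no filter on low values, without the small RNAs, after median-of-ratios scaling with or without the replicate block or the correction for GC content and length, in voom on recovered reads without the block, and, in alternatives added after the data were seen, after scaling or by voom with the block when vehicle replicate 3 was left out. It was 14 with a minimum of 1 TPM and 40 with the replicate block. Leaving out 1 sample gave 0 to 46 LINC RNAs lower and 0 to 1 higher, and 0 to 2384 genes lower and 0 to 35 higher. Over all genes, 28 were lower with a pseudocount of 0.1, 348 with a minimum of 1 TPM, 2267 (and 19 higher) with the block, 1 (and 0 higher) by voom, 293 (and 173 higher) by voom with the block, 27 (and 20 higher) by voom with the block without vehicle replicate 3, and 0 in either direction with no filter, without the small RNAs and after scaling in each form. The fits with 36, 18, 46 and 16 LINC calls when a sample was left out, and the blocked fit on TPM, took their spread almost wholly from all genes together. The cause of the other changes was not tested.

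The median log2 fold change of the LINC RNAs stayed negative in all 20 alternatives. It lay between -0.57 with a pseudocount of 0.1 and -0.08 after scaling without vehicle replicate 3. All genes had medians of -0.42 and 0.01 in those fits. None of the 10 called RNAs changed sign.

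Signs did change among RNAs that were not called. After median-of-ratios scaling, with or without the block, log2 fold changes were 0.051 for LINC00665, 0.085 for LINC00667, 0.0070 for LINC00707, 0.023 for LINC00963 and 0.13 for LINC01116. With GC content and length corrected as well they were 0.091 for LINC00665, 0.26 for LINC00667, 0.12 for LINC00707 and 0.16 for LINC01116. By voom they were 0.12 for LINC00665, 0.14 for LINC00667, 0.019 for LINC00707, 0.061 for LINC00963 and 0.19 for LINC01116, and with the block 0.19, 0.14, 0.017, 0.052 and 0.19 in that order. After scaling without vehicle replicate 3 they were 0.11, 0.085, 0.14, 0.055 and 0.11, and by voom with the block without it 0.35, 0.16, 0.12, 0.084 and 0.19, with -0.082 for LINC01126 and -0.19 for LINC01220. Without the small RNAs LINC00667 had 0.026 and LINC01116 had 0.14. On TPM with 1 sample left out, the lowest and highest values were -0.16 and 0.012 for LINC01116, -0.12 and 0.31 for LINC01126, -0.14 and 0.45 for LINC01220, -0.074 and 0.46 for LINC01816 and -0.045 and 0.41 for LINC02361. Of the 176 members, 72 had fewer than 10 reads in vehicle replicate 3.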
